A study of Rattus norvegicus with 8 samples.

Results

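The genes described here are those of the proteasome: every gene whose annotated symbol starts with Psma, Psmb, Psmc, Psmd, Psme, Psmf or Psmg followed by a digit. By this rule 46 of 13810 named genes were members, read by 61 probe sets that the annotation gives to exactly 1 gene, 46 on chip A and 15 on chip B. They were measured in A2B5/OTMP+ cells, which the labels call perineuronal oligodendrocytes, sorted by flow cytometry from rat brain at postnatal day 7. Total RNA of 4 biological replicates was read on each of 2 Affymetrix array types, chip A and chip B, which makes 8 samples in 2 groups of 4. The groups are the same sorted population on different array types, with no treatment, no control population and no strain or sex in the labels, nor the number of animals behind a replicate. Tests therefore measure the spread between these replicates only, and the number of arrays limits their precision.

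Each deposited value is a ratio, and the labels do not name the reference it was divided by. A ratio of 1, which is 0 on the log2 scale, means the same signal as that reference. A ratio cannot say whether a gene was expressed, nor rank 1 gene's expression above another's. In a sorted population, fewer cells of a type and less RNA per cell cannot be told apart. Each probe set was tested against a ratio of 1 with limma, two-sided, over all 15866 probe sets of chip A and all 15276 of chip B. A probe set was called lower or higher at a Benjamini-Hochberg adjusted p under 0.05, and a gene was counted as lower or higher if any of its probe sets was. The median ratio per array lay between 0.888 and 0.967, so calls were also made after each array was centred on its median, which added 0.12 on chip A and 0.10 on chip B to log2 ratios. Of the marker genes of the oligodendrocyte lineage, 2 of 7 had a higher probe set (Pdgfra and Ptprz1) and 1 a lower one (Olig2), and of 5 myelin genes 0 were called. All 6 astrocyte markers had a higher probe set (Slc1a3 also a lower one), as did 5 of 7 neuron markers, 1 of them with a lower one too, while the other 2 neuron markers were lower. Of all named genes 9.23% had a higher probe set. Some control probe sets for bacterial and phage transcripts had low ratios too: on chip A 5 of 45 had a mean ratio of 0.6 or less, and on chip B 7 of 45 did, so a low ratio alone does not show less of a transcript.

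The proteasome degrades proteins tagged with ubiquitin. Its barrel-shaped core particle is built of alpha subunits, which form the outer rings and the gate, and beta subunits, 3 kinds of which cut peptide bonds. The regulatory particle, named 19S after its sedimentation, caps the 20S core: its ATPases unfold substrates, and its other subunits bind and remove ubiquitin. Interferon exchanges the catalytic subunits for the immune subunits Psmb8, Psmb9 and Psmb10, and the 11S activator (Psme1 with Psme2, or Psme3) can take the place of the cap. In the brain the proteasome is known for clearing short-lived and damaged proteins.

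Almost all proteasome genes lay below the reference. By limma 35 of the 46 genes had a lower probe set (76.1%, against 37.7% of all named genes) and 1 had a higher one (2.17%, against 9.23%). The mean log2 ratio was below 0 for 45 of 46, against 71.3% of all named genes, and ranged from -1.19 for Psmd14 to 0.34 for Psme4. On chip A 31 of 46 probe sets were lower (67.4%, against 30.1% of all chip A probe sets) and 1 was higher (against 9.21%). On chip B 8 of 15 were lower (53.3%, against 27.1% of all) and 0 higher (against 5.08%). With arrays centred on their medians 25 genes were lower, against 30.8% of all named genes, and Psme4 again was higher, against 11.9%. By probe set 21 of 46 on chip A were then lower (against 23.3%) and 1 higher (against 11.8%), and on chip B 6 of 15 were lower (against 23.7%) and 0 higher (against 5.68%). Within the proteasome the core was lower throughout, the 19S particle was lower in part, and the single higher gene encoded an alternative activator.

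**Figure D1:**
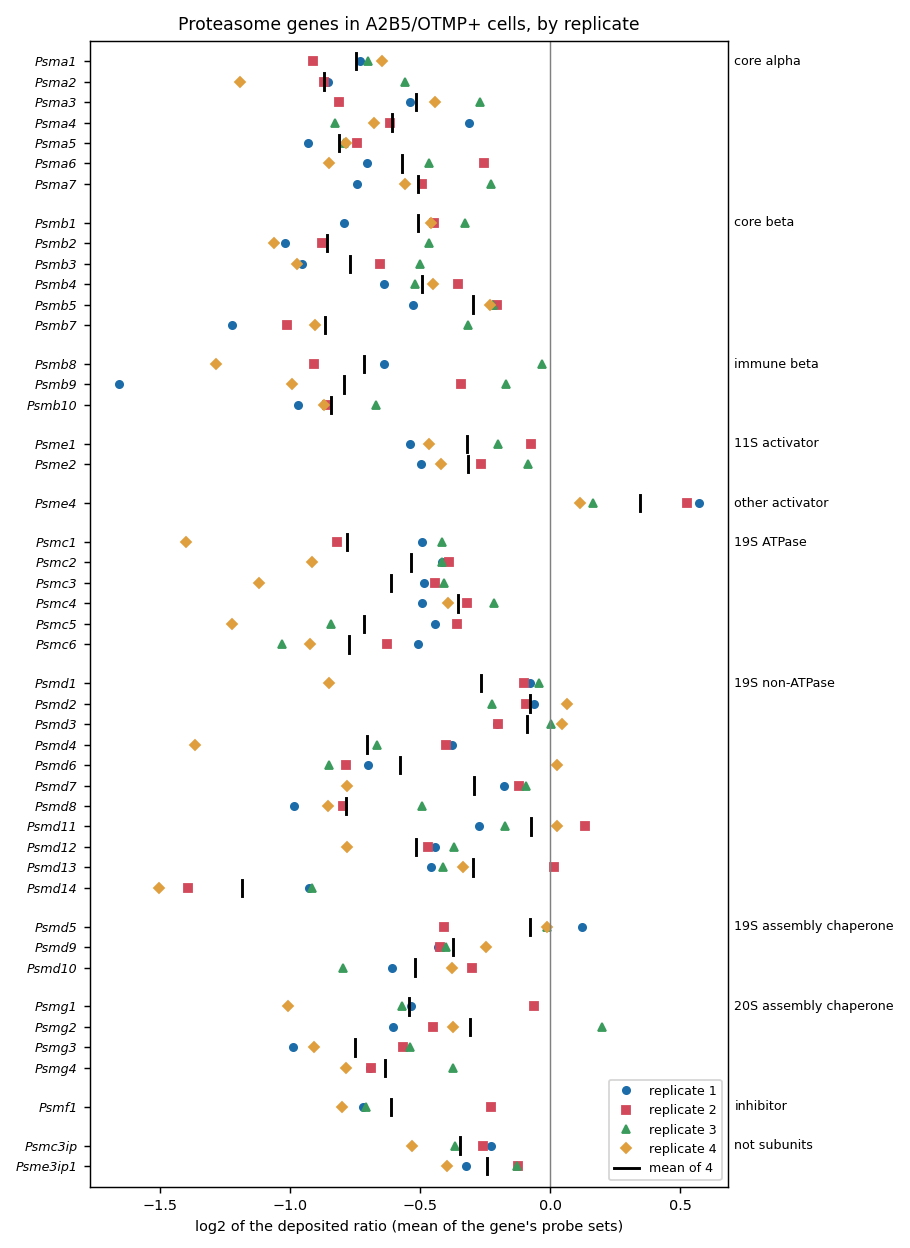
Log2 of the deposited ratio (x axis, mean over a gene's probe sets) for the 46 genes matched by symbol, grouped by role from top to bottom, with a marker for each of the 4 replicates and a bar for their mean. The core genes lie below 0 in all 4 replicates, 19S ATPase genes have their lowest points mostly in replicate 4, and Psme4 is the only gene whose mean is above 0.

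Promoters are shown for the 3 genes with the lowest called probe sets among those with an entry in the promoter table (Psmc6, Psma2 and Psmb7) and for the 1 higher gene, Psme4, so that genes that differed in the same and in the opposite direction can be read together. Of the 46 genes 42 had a promoter there, and Psma7, Psmd6, Psmd12 and Psmd14 did not. Each sequence is the 250 bases before the gene's start in RefSeq (assembly GRCr8), written 5′ to 3′ on the gene's strand. Psmc6 is at chr15:21022064-21022313 (+ strand), Psma2 at chr17:55260442-55260691 (- strand), Psmb7 at chr3:42827471-42827720 (- strand) and Psme4 at chr14:108706393-108706642 (+ strand). Capitals mark the 4 motifs searched on both strands, each counted on its own with overlaps allowed: the antioxidant response element TGACNNNGC, which Nfe2l1 and Nfe2l2 bind, the CCAAT box CCAAT, and the interferon elements ISRE (GAAA, any 2 bases, GAAA) and GAS (TTCNNNGAA).
Psmc6: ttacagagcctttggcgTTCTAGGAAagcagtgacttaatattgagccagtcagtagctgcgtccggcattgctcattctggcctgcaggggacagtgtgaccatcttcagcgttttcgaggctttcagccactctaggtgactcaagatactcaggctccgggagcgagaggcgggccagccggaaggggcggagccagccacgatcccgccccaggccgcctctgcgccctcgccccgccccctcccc
Psma2: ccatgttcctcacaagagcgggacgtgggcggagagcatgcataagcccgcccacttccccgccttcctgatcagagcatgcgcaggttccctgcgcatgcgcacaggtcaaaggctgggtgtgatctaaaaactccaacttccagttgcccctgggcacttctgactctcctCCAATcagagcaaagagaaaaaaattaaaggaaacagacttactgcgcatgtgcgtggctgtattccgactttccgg
Psmb7: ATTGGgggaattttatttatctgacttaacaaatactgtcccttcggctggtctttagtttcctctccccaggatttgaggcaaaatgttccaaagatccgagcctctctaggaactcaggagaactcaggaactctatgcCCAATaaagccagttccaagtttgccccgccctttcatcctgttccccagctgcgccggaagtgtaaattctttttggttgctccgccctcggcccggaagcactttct
Psme4: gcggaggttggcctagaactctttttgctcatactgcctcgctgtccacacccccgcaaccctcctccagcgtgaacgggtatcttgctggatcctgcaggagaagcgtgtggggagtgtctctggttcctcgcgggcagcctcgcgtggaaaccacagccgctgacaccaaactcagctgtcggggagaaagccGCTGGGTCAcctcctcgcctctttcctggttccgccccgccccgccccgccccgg

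These letters were found in members at shares that can be read against all 33469 promoters of the same length. CCAAT was in 21 of 42 member promoters (50%, against 34% of all promoters), and in 9 of 12 core promoters, among them Psma2 and Psmb7 above. TGACNNNGC was in 6 of 42 (14.3%, against 10.1%): Psma3, Psmb2, Psmb5, Psmd1, Psmd9 and Psme4. The ISRE was in 5 of 42 (11.9%, against 3.41%): Psmb10 and Psme2 of the immune group, and Psma4, Psmb3 and Psmd7 outside it. TTCNNNGAA was in 4 of 42 (9.52%, against 7.67%): Psmb8 of the immune group, and the 19S genes Psmc6, Psmd3 and Psmd7. A match is a description of the sequence, and no test was made of it. The element TGACNNNGC was present both in Psme4, which was higher, and in Psmb2, which was lower.

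All 7 alpha subunit genes of the core were lower than the reference (100%, against 37.7% of all named genes). Psma5 had ratios of 0.525, 0.598, 0.577 and 0.580 in replicates 1 to 4 (mean log2 ratio -0.81 ± 0.08, SD, n = 4, limma adjusted p = 0.000485). Psma1 had ratios of 0.602, 0.532, 0.616 and 0.639 (log2 -0.75, adjusted p = 0.000937). These were the most even of the core genes, with every replicate near the same ratio. Psma2, the gene with the lowest mean among the alpha subunits, had ratios of 0.553, 0.548, 0.680 and 0.437 (log2 -0.87 ± 0.26, adjusted p = 0.00284). Psma7 had 0.564, 0.549, 0.722 and 0.461 on chip A (log2 -0.82 ± 0.27, adjusted p = 0.00374). In Psma2 and Psma7 replicate 3 was highest and replicate 4 lowest. The other Psma7 probe set, on chip B, stood at 0.633, 0.921, 1.008 and 1 and was not called (log2 -0.19 ± 0.32, adjusted p = 0.345). Psma4 had ratios of 0.805, 0.652, 0.564 and 0.626 (log2 -0.61, adjusted p = 0.00654), while Psma6 at -0.57 ± 0.26 and Psma3 at -0.52 ± 0.23 lay nearer to the reference. Every one of the 28 chip A values of the alpha genes was below 1. The call of Psma6 was lost without replicate 1 (adjusted p = 0.0511).

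The beta subunit genes of the core with a probe set of their own, 6 of 7, were all lower as well (100%, against 37.7% of all named genes). The structural subunit gene Psmb2 had ratios of 0.493, 0.544, 0.725 and 0.479 in replicates 1 to 4 (log2 -0.86 ± 0.27, limma adjusted p = 0.00341). Psmb3, likewise structural, had 0.517, 0.636, 0.707 and 0.509 (log2 -0.77 ± 0.23, adjusted p = 0.00327). In both genes replicate 3 was the highest. Psmb4 had 0.642, 0.783, 0.697 and 0.731 (log2 -0.49 ± 0.12, adjusted p = 0.00481) and Psmb1 averaged -0.51 ± 0.20 (adjusted p = 0.0104). Among catalytic genes Psmb7, which encodes the trypsin-like subunit, had ratios of 0.428, 0.496, 0.804 and 0.534 (log2 -0.86 ± 0.39, adjusted p = 0.00942). Replicate 3 stood above the other 3, which lay close together. Psmb5, which encodes the chymotrypsin-like subunit, had ratios of 0.533, 0.881, 0.747 and 0.717 on chip A (log2 -0.50 ± 0.30, adjusted p = 0.0302). On chip B its probe sets had 0.816, 0.936, 0.868 and 0.834 (log2 -0.21 ± 0.09, adjusted p = 0.0395) and 0.767, 0.793, 0.974 and 1.032 (log2 -0.18 ± 0.21, adjusted p = 0.239). The Psmb5 calls were the least firm of the core, since neither held with arrays centred (adjusted p = 0.0738 and 0.216). Psmb6, the gene of the caspase-like subunit, was read by a probe set that also names Psmb6l1 and has no value here.

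Immune subunits and the 11S activator were not above the reference in any replicate on chip A. Psmb10 had even ratios of 0.510, 0.552, 0.628 and 0.548 in replicates 1 to 4 (log2 -0.84 ± 0.12, limma adjusted p = 0.000677). Psmb8 had 0.642, 0.533, 0.978 and 0.410 (log2 -0.72 ± 0.53, adjusted p = 0.0434). Psmb9 had 0.317, 0.788, 0.889 and 0.503 (log2 -0.79 ± 0.68) and did not pass (adjusted p = 0.0645). Psmb8 and Psmb9 thus had means close to that of Psmb10 with a spread several times wider, and in all 3 genes replicate 3 was highest. Psme1 had 0.516, 0.854, 0.765 and 0.595 on chip A (log2 -0.58 ± 0.33, adjusted p = 0.0236) and 0.917, 1.059, 0.992 and 0.881 on chip B (log2 -0.06 ± 0.12, adjusted p = 0.502). Psme2 had 0.709, 0.831, 0.943 and 0.747 (log2 -0.32 ± 0.18, adjusted p = 0.0418). The third gene of this activator family, Psme3, was read only by probe sets that also name Aoc3 and G6pc1, and has no value here. Of these 5 genes 4 were lower (80%, against 37.7% of all named genes), but 1 with arrays centred (20%, against 30.8%). It was 1 without replicate 1, 2 without replicate 2, 4 without replicate 3 and 1 without replicate 4. Of all named genes 31.5% to 34.8% were lower with a replicate left out. With quantile normalization 3 were lower (against 37.3% of all), and with a trended and robust prior 5 (against 37.8%). In a test against a 1.2-fold difference 1 was (against 25.1%). Psmb10 was called in each of these settings.

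The immune subunits were set against the constitutive subunits they replace within each replicate. The log2 ratio of Psmb8 minus that of Psmb5 (mean of its probe sets) was -0.11, -0.70, 0.19 and -1.05 in replicates 1 to 4, which averages -0.42 ± 0.56 and has no constant sign. Psmb10 minus Psmb7 was 0.25, 0.15, -0.36 and 0.04, with a mean of 0.02 ± 0.27. Neither difference exceeded its spread over replicates. As each gene is scaled to its own reference value, such a difference compares shifts from that reference and not amounts of transcript.

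Genes of antigen presentation and microglia were read beside the immune subunits. Of 14 measured genes of the MHC class I pathway and interferon signalling, 4 were lower and 0 higher: the peptide transporter gene Tap1 at -1.07 ± 0.11 (limma adjusted p = 0.000246) and -0.59 ± 0.40 (0.0375), the interferon receptor gene Ifngr2 at -0.70 ± 0.06 (0.000699) on the lower of its probe sets, and the transcription factor genes Irf1 at -0.86 ± 0.28 (0.00354) and Irf8 at -0.57 ± 0.25 (0.0112). That share, 28.6%, is under the 37.7% of all named genes. B2m, which encodes the light chain of class I molecules, stood at -0.06 and -0.15 without a call. Of 14 microglia and leukocyte markers 6 were lower and 0 higher (42.9%, near that share), and 2 with arrays centred (14.3%, against 30.8%), among them C1qc at -0.73 ± 0.37 (0.0154) and Cd53 at -1.004 ± 0.58 (0.0193). The median of these 14 markers was -0.59, -0.68, -0.01 and -0.73 in replicates 1 to 4. Of the 14, 13 were highest in replicate 3 (92.9%, against 33.9% of all named genes). The median of the 5 immune and 11S genes was -0.64, -0.34, -0.17 and -0.87, also highest in replicate 3 and lowest in replicate 4. Gene by gene the low end differed. Of the 5 genes 4 were lowest in replicate 1 (80%) and 1 in replicate 4 (20%). Of the 14 markers 0 were lowest in replicate 1 and 10 in replicate 4 (71.4%). Of all named genes 30.3% were lowest in replicate 1 and 30.3% in replicate 4. The order of the medians was not particular to these lists. Over all 46 members the median was likewise highest in replicate 3 (-0.40) and lowest in replicate 4 (-0.78), and 47.8% of members were highest in replicate 3. The core median was highest in replicate 3 too, at -0.47. The part of microglial RNA in the values of the immune and 11S genes was not tested.

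The 6 ATPase genes of the 19S base, which form the ring that unfolds substrates, each had a lower probe set (100%, against 37.7% of all named genes). Psmc1 had ratios of 0.711, 0.567, 0.750 and 0.379 in replicates 1 to 4 (log2 -0.78 ± 0.45, limma adjusted p = 0.0204). Psmc5 had 0.735, 0.781, 0.557 and 0.428 (log2 -0.72 ± 0.40, adjusted p = 0.0194). Psmc3 had 0.715, 0.736, 0.754 and 0.460 (log2 -0.61 ± 0.34, adjusted p = 0.0207). In these 3 genes, and in Psmc2 with 0.749, 0.763, 0.749 and 0.530 (log2 -0.54 ± 0.25, adjusted p = 0.0154), replicate 4 was the lowest, and in Psmc2 and Psmc3 the other 3 were nearly equal. Psmc6, read on chip B alone, had 0.642, 0.566, 0.425 and 0.559 (log2 -0.88 ± 0.25, adjusted p = 0.00381) and 0.769, 0.742, 0.563 and 0.498 (log2 -0.66 ± 0.31, adjusted p = 0.0191). Psmc4 divided by probe set. One on chip B had 0.506, 0.591, 0.622 and 0.625 (log2 -0.78 ± 0.14, adjusted p = 0.0012), and the others stood at -0.11 ± 0.14 on chip B and -0.18 ± 0.20 on chip A without a call. All 6 genes were also lower without replicate 1 or without replicate 4. Without replicate 2 (Psmc1 at 0.0535) or without replicate 3 (Psmc5 at 0.0688) 5 of 6 were. Of all named genes 31.5% to 34.8% were lower with a replicate left out. With arrays centred 4 of 6 were lower (66.7%, against 30.8% of all named genes). In a test against a 1.2-fold difference 2 of 6 were, against 25.1% of all.

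Replicate 4 stood apart for the base of the 19S particle more than for its lid. The median over the 17 regulatory genes was -0.44, -0.39, -0.41 and -0.85 in replicates 1 to 4, and 9 of 17 genes were lowest in replicate 4 (52.9%, against 30.3% of all named genes). For the ATPases alone it was -0.49, -0.42, -0.42 and -1.02, with 4 of 6 genes lowest in replicate 4 (66.7%), Psmc4 and Psmc6 not among them. For the 3 other base genes it was -0.08, -0.10, -0.22 and -0.85, with 2 lowest in replicate 4, Psmd1 and Psmd4. For the 8 lid genes it was -0.45, -0.34, -0.39 and -0.56, with 3 genes lowest in replicate 4 and 4 in replicate 1. The base gene Psmd2 and the lid genes Psmd3 and Psmd6 were highest in replicate 4. Of 3 array controls for RNA integrity, GAPDH and beta-actin were lowest in replicate 4 and hexokinase was not. The 5′ probe set of GAPDH over its 3′ probe set stood at 0.636, 0.636, 1.02 and 0.364 of the reference on chip A and at 0.669, 0.563, 0.978 and 0.336 on chip B, lowest in replicate 4 and highest in replicate 3. For beta-actin the same quotient was 0.894, 0.889, 0.960 and 0.546 on chip A, and for hexokinase it was 1.35, 1.25, 1.29 and 1.31 on that array type, with no drop in replicate 4. Hexokinase on chip B stood at 1.21, 1.23, 1.23 and 1.31. The part of RNA integrity in the 19S values was not tested. Without replicate 4 the mean of the regulatory medians was -0.42, against -0.52 with all 4. Either way 11 of 17 genes were lower (64.7%), against 37.7% of all named genes with all 4 replicates and 31.5% without replicate 4.

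**Figure D2:**
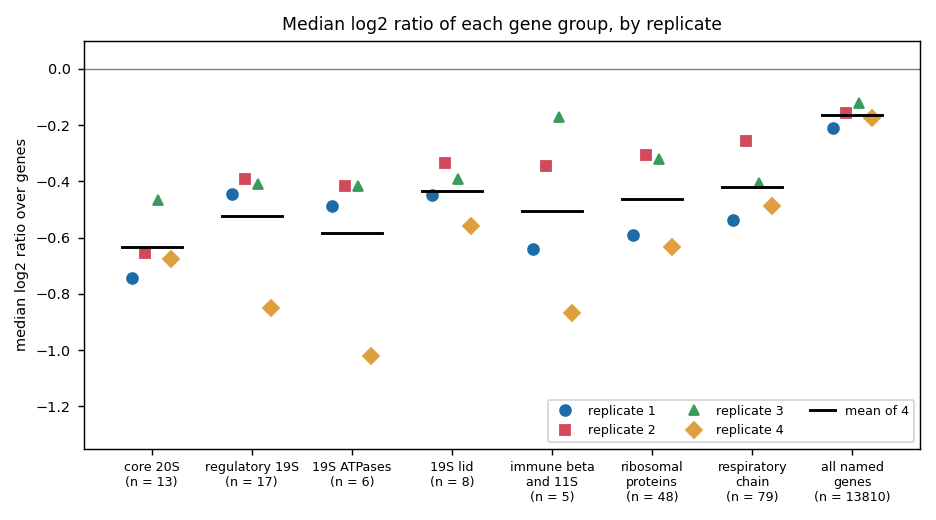
Median log2 ratio over the genes of each group (y axis) in each of the 4 replicates (markers), with a bar for the mean of 4 and the number of genes under each group. Replicate 4 lies apart for the 19S genes (-0.85) and their ATPases (-1.02). Replicate 3 is highest for the immune group (-0.17) and for the core, whose medians lie between -0.74 and -0.47.

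Among the other 19S genes lower calls were about as frequent as elsewhere. Of 11 non-ATPase subunit genes 5 were lower (45.5%, against 37.7% of all named genes), or 3 with arrays centred (27.3%, against 30.8%), and 6 were not called, and all 11 gene means were below 0. Psmd14, which encodes the enzyme that takes ubiquitin chains off substrates, had the lowest mean of all members and was lower on all 3 of its probe sets, which are on chip B. Their ratios in replicates 1 to 4 were 0.504, 0.479, 0.490 and 0.509 (log2 -1.01 ± 0.04, limma adjusted p = 0.000112), then 0.630, 0.719, 0.703 and 0.480 (log2 -0.68 ± 0.27, adjusted p = 0.0119), then 0.458, 0.160, 0.432 and 0.180 (log2 -1.86 ± 0.81, adjusted p = 0.0135). On the last of these replicates 2 and 4 were lower than 1 and 3. Psmd8, a subunit of the lid, had 0.505, 0.576, 0.710 and 0.553 (log2 -0.78 ± 0.21, adjusted p = 0.00234), and the lid gene Psmd12 had 0.736, 0.722, 0.773 and 0.582 on chip B (log2 -0.52 ± 0.18, adjusted p = 0.00987). The ubiquitin receptor gene Psmd4 averaged -0.70 ± 0.46, with 0.388 in replicate 4 against 0.630 to 0.769 in the others (adjusted p = 0.0314). Psmd6, at -0.58 ± 0.41, had 3 low replicates and 1.018 in replicate 4 (adjusted p = 0.0411). The calls of Psmd4 and Psmd6 were lost with arrays centred (adjusted p = 0.0744 and 0.113).

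The scaffold genes of the base and several lid genes were not called, some near a ratio of 1 and some below it with a wide spread. Psmd2 had 0.959, 0.939, 0.857 and 1.045 (log2 -0.08 ± 0.12, limma adjusted p = 0.461), and Psmd3 had 0.867, 0.871, 1.003 and 1.033 (log2 -0.09 ± 0.13, adjusted p = 0.422). Psmd1 had 0.948, 0.934 and 0.970 in replicates 1 to 3 and 0.555 in replicate 4 (log2 -0.27 ± 0.39, adjusted p = 0.243). The 3 probe sets of Psmd11, a lid subunit known for promoting assembly of the whole particle, stood at -0.16, -0.10 and 0.05 with adjusted p from 0.236 to 0.840. Psmd7, the partner of Psmd14 in the lid, stood at -0.15 ± 0.18 on chip A and -0.44 ± 0.62 on chip B, and Psmd13 at -0.30 ± 0.21, none of them called, though Psmd13 was lower without replicate 2 (adjusted p = 0.0246). With arrays centred Psmd2 stood at 0.04, Psmd3 at 0.03 and the probe sets of Psmd11 at -0.04, 0.02 and 0.15. A missed threshold does not show that these genes were equal to the reference.

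Core and regulatory genes were compared within each replicate. The core median was -0.74, -0.65, -0.47 and -0.68 in replicates 1 to 4 over 13 genes, against the regulatory medians above. Core minus regulatory was -0.30, -0.26, -0.06 and 0.17, a mean of -0.11 ± 0.22, so the core was the lower in 3 of 4 replicates and the difference was within its spread. On chip A alone it was -0.27 ± 0.20. By calls 13 of 13 core genes (100%) and 11 of 17 regulatory genes (64.7%) were lower, against 37.7% of all named genes. With arrays centred 12 of 13 (92.3%) and 7 of 17 (41.2%) were, against 30.8% of all. Immune minus core was 0.10, 0.31, 0.30 and -0.19, with a mean of 0.13 ± 0.23. No p is given for these differences, because the members were chosen with earlier results of these data known.

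Assembly factors and the inhibitor followed the lower genes for the most part. Psmg3 and Psmg4, which encode chaperones for the alpha ring, had ratios of 0.504, 0.675, 0.688 and 0.533 (log2 -0.75 ± 0.23, limma adjusted p = 0.00355) and of 0.619, 0.621, 0.771 and 0.581 (log2 -0.63 ± 0.18, adjusted p = 0.00366). Psmg1 averaged -0.54 ± 0.39 (adjusted p = 0.043), a call lost with arrays centred (0.102), and Psmg2 averaged -0.31 ± 0.35 with 1.149 in replicate 3 (adjusted p = 0.156). Of the base chaperones, Psmd9 had 0.591, 0.602, 0.578 and 0.684 on chip A (log2 -0.71 ± 0.11, adjusted p = 0.00108), while its chip B probe set stood at -0.04 ± 0.08 (adjusted p = 0.554). Psmd10 averaged -0.52 ± 0.23 (adjusted p = 0.0126) and Psmd5 -0.08 ± 0.23 (adjusted p = 0.611). The inhibitor gene Psmf1 had 0.608, 0.854, 0.613 and 0.574 (log2 -0.61 ± 0.26, adjusted p = 0.0101), with replicate 2 above the others. The symbol rule also took in Psmc3ip at -0.35 ± 0.14 (adjusted p = 0.0201, or 0.0662 with arrays centred) and Psme3ip1 at -0.24 ± 0.14 (adjusted p = 0.0619). Psmc3ip acts in meiotic recombination and Psme3ip1 encodes a binding partner of Psme3, and neither is a subunit.

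Psme4 was the only member with a higher probe set. It encodes a large alternative activator, known for acting in the nucleus and in spermatogenesis. Its 3 chip A probe sets had ratios of 1.605, 1.820, 1.185 and 1.353 in replicates 1 to 4, then 1.275, 1.603, 1.047 and 1.040, then 1.610, 1.025, 1.136 and 0.905. Of these 12 values 11 were above 1, and replicate 1 or 2 was highest on each probe set. The first probe set averaged 0.56 ± 0.27 (limma adjusted p = 0.016), and the others 0.29 ± 0.29 (0.131) and 0.19 ± 0.36 (0.362). The call was lost without replicate 1 (adjusted p = 0.0583) and in a test against a 1.2-fold difference (0.099).

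Probe sets of 1 gene often disagreed. Among the 10 genes with several, 5 had both called and uncalled ones on the lower side (Psma7, Psmb5, Psmc4, Psmd9 and Psme1), 2 were lower on all (Psmc6 and Psmd14) and 3 on none (Psmd7, Psmd11 and Psme4). The median gap between the lowest and the highest probe set of a gene was 0.44 on the log2 scale, close to the size of the shifts themselves. For Psma7, Psmd9 and Psme1 the chip A probe set was the lower one and the chip B probe set lay near 1, and for Psmc4 the lowest was on chip B. On chip B 3 of 15 member probe sets held a ratio of exactly 1 on some array, against 23% of all chip B probe sets. RefSeq lists pseudogene copies for 17 of the 46 genes, and whether any probe set reads them was not tested.

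**Figure D3:**
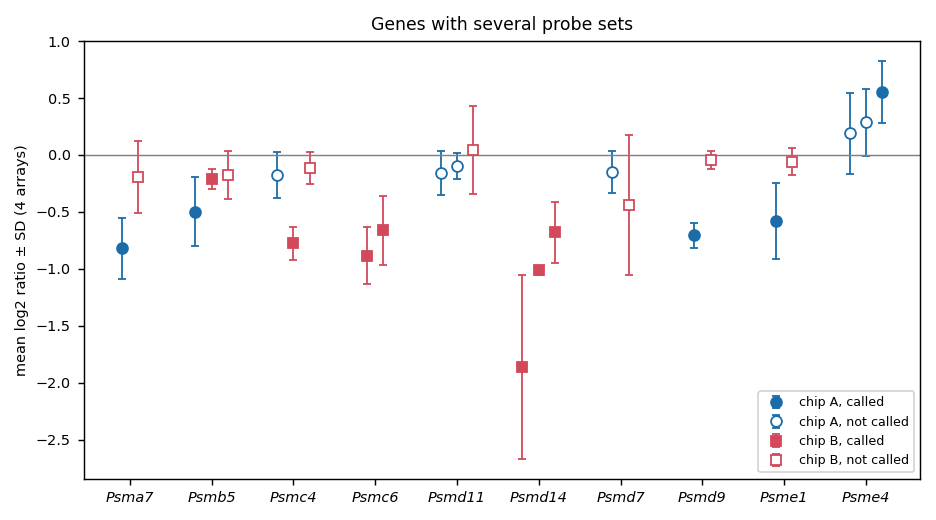
Mean log2 ratio ± SD over 4 arrays (y axis) for each probe set of the 10 members with several, chip A as circles and chip B as squares, filled where called by limma. Filled and open symbols stand side by side in Psma7, Psmb5, Psmc4, Psmd9, Psme1 and Psme4.

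Partners of the proteasome outside the symbol rule were lower at a like share. Of 11 measured, 8 had a lower probe set (72.7%, against 37.7% of all named genes), and 6 with arrays centred (54.5%, against 30.8%). Several of these genes have many probe sets, any of which counts. The 8 were Akirin2, which brings proteasomes into the nucleus, at -2.43 ± 0.06 (limma adjusted p = 9.73e-05), the zinc finger gene Zfand5 at -1.42 ± 0.01 on the lowest of its probe sets (6.11e-05), the deubiquitinase genes Uchl5 at -1.05 ± 0.18 (0.000701) and Usp14 at -0.34 ± 0.07 (0.00628), the small lid subunit gene Sem1 at -0.74 ± 0.23 (0.00348), Txnl1 at -0.71 ± 0.24 (0.0047), and the ubiquitin ligase gene Ube3c and the adaptor gene Ecpas. The values of Sem1 and Txnl1 are from chip A. On chip B Sem1 was not called, at -0.34 ± 0.30 (0.119), and Txnl1 was lower too, at -0.39 ± 0.145 (0.0146). The other chip A probe sets of Txnl1 stood at -0.06 and -0.08 without a call. Ube3c stood at -0.51 ± 0.26 on chip A (0.0181) but at 0.72 ± 0.49 on chip B (0.0586). Ecpas was lower on 1 of 6 probe sets, at -0.20 ± 0.03 (0.0202), and its others ran over -0.24 to 0.49 without a call. The core maturation factor gene Pomp stood at -0.40 ± 0.29 (0.0528) and the ubiquitin receptor gene Adrm1 at 0.21 ± 0.50 (0.446). Akirin2 and Zfand5 held nearly the same ratio on all 4 arrays, at 0.176 to 0.192 and 0.371 to 0.377. Ratios cannot tell whether such probe sets detected their transcripts.

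Nfe2l1, the transcription factor gene that drives proteasome genes when the proteasome is impaired, was not called on any of its 3 probe sets, at 0.09 ± 0.27, -0.07 ± 0.09 and 0.11 ± 0.32 (limma adjusted p from 0.475 to 0.595). Of the 8 measured genes of this list 4 had a lower probe set (50%, against 37.7% of all named genes), and 3 with arrays centred (37.5%, against 30.8%). They were Ddi2, a protease gene known for activating the Nfe2l1 protein, at -1.37 ± 0.04 on 1 probe set and 0.09 ± 0.49 on the other, the stress regulators Keap1 at -1.66 ± 0.05 and -0.05 ± 0.09 and Nfe2l2 at -0.53 ± 0.25 (0.0157), and Mafk at -0.82 ± 0.55 (0.0323). For shuttle factors and the unfoldase Vcp 7 of 9 had a lower probe set (77.8%), and 4 with arrays centred (44.4%). They were led by Ubqln2 at -2.61 ± 0.02 on 1 of its probe sets (5.93e-05), with -0.93 (0.000297) and -0.03 (0.881, not called) on the others. Nploc4 stood at -1.32 ± 0.07 (0.000122), and its other probe sets at -0.32 and -0.35 were not called. The lowest probe sets of Ubqln2 (0.162 to 0.167), Nploc4 (0.381 to 0.422), Ddi2 (0.377 to 0.4) and Keap1 (0.305 to 0.328) were nearly even over the 4 arrays. Ratios cannot tell whether they detected their transcripts. Of the activating enzymes of ubiquitin and of ubiquitin-like proteins 3 of 6 had a lower probe set (50%), but 1 with arrays centred (16.7%, against 30.8%). The 3 were Uba2 at -0.35 ± 0.21 (0.0406), Uba3 at -0.37 ± 0.19 (0.0274) and Uba6 at -0.47 ± 0.11 (0.00392) on 1 of 4 probe sets, the others at -0.84, -0.06 and 0.23 without a call. Uba2 and Uba3 act on ubiquitin-like proteins and not on ubiquitin. The ubiquitin-activating gene Uba1 was not called, at -0.255 on chip A (0.175) and -0.419 on chip B (0.138).

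Other large housekeeping complexes were lower as well. A lower probe set was found in 35 of 46 proteasome genes (76.1%), against 37 of 48 cytosolic ribosomal protein genes (77.1%) and 47 of 79 respiratory chain genes (59.5%), and the medians over gene means were -0.54, -0.46 and -0.40. With arrays centred the counts were 25 of 46 (54.3%), 20 of 48 (41.7%) and 32 of 79 (40.5%). The share of all named genes was 37.7%, or 30.8% with arrays centred. On chip A alone 72.1% of proteasome, 84.1% of ribosomal protein and 58.2% of respiratory chain genes were lower, against 34.7% of all named genes. The core median minus the ribosomal one was -0.15, -0.35, -0.15 and -0.04 in replicates 1 to 4 (-0.17 ± 0.13), and minus the respiratory one -0.21, -0.40, -0.06 and -0.19 (-0.21 ± 0.14). The core was thus the lower in each replicate, by about the spread or somewhat more. This did not hold for all 46 members together. In replicate 1 their median was -0.536, against -0.592 for ribosomal protein and -0.536 for respiratory chain genes. Minus the median of all named genes the core stood at -0.53, -0.50, -0.35 and -0.50 (-0.47 ± 0.08), the regulatory genes at -0.36 ± 0.21 and the immune group at -0.34 ± 0.28. These are descriptions over lists, with no test of the difference between them.

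**Figure D4:**
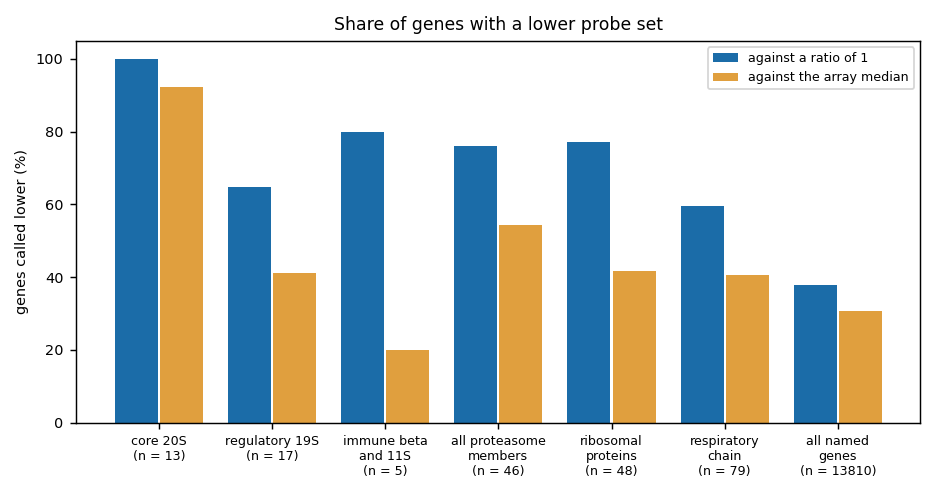
Share of genes with a probe set called lower by limma (y axis, percent) against a ratio of 1 and against the array median, for groups of proteasome genes, for ribosomal protein and respiratory chain genes, and for all named genes. The core stands at 100% and 92.3%, all members at 76.1% and 54.3%, the immune group at 80% and 20%, and all named genes at 37.7% and 30.8%.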

How the data were processed

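Total RNA of the sorted cells was labelled with biotin and hybridised to Affymetrix arrays, per the labels. The deposited values are linear ratios to a reference that the labels do not name, and RMA is the tool named in the submitters' processing notes. Its version and the step that made the ratios are not given in the sources used here. Each of the 4 arrays per type was labelled as a biological replicate. Ratios were taken to log2 and fitted per array type over all probe sets except controls with limma 3.58.1 in R 4.3.3 (intercept, empirical Bayes, two-sided, Benjamini-Hochberg adjustment), with no filter on low ratios. The fit was tested on simulated data in which 200 probe sets per array type were shifted, fewer than were called here. On chip A it called 65% of log2 shifts of 1 and 32% of shifts of 0.5, and on chip B 71% and 37%. Of its 100 calls on chip A 3 were false, and of 117 on chip B 9 were. Most shifts of 0.5 thus went uncalled in the simulation. Its rates need not hold for the data, where more probe sets were called, but small shifts can still go uncalled. Genes were named from GEO's platform annotation, only for probe sets with 1 gene, and all 46 member identifiers were found in RefSeq's GRCr8 table. Gene values are means over probe sets, and the 2 array types were normalized separately and not tested against each other. Tables and figures were made with Python 3.11.15, pandas 2.3.3 and matplotlib 3.10.9.

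The members and the lists were chosen with earlier results of these data known, so no p is given for a list. Replicate values were named for called members (up to 15 per direction and array type, in order of adjusted p), catalytic and 11S genes, with up to 4 examples of the others per class, and called genes of the accompanying lists (up to 6 per list). Values of further members, C1qc, Cd53 and of genes near a ratio of 1 were added after they were seen. Alternatives were centring on array medians, quantile normalization, a trended and robust prior, a pseudocount of 0.1, a test against a 1.2-fold difference, chip A alone, the median probe set per gene, and each replicate left out.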

Additional observations from a re-analysis of the deposited data

Results flagged for a closer look

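In 5 of 64 sets of 4 replicates, 1 replicate stood apart from the other 3 by a gap that took up most of the whole range, where chance alone flags about 1 in 20, or 3.2 of 64. Replicate 4 was the low one for Psmc2 (ratio 0.53), Psmd1 (0.555) and Psmc3 (0.46), all genes of the 19S base read on chip A. The median log2 ratio over the 17 regulatory genes was likewise low in replicate 4, at -0.849. Replicate 4 also had the lowest 5′ over 3′ quotient of GAPDH, at 0.364 on chip A, while that of hexokinase was not lowest there, and the part of RNA integrity in these values was not tested. Replicate 2 was the high one for the inhibitor gene Psmf1 (0.854).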

How the results depend on the processing

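The count of 35 lower genes was 25 with arrays centred, 33 with quantile normalization, 36 with a trended and robust prior, 35 with a pseudocount, 31 on chip A alone, 34 with the median probe set per gene and 16 in the test against a 1.2-fold difference, which asks for more than a departure from 1. It was 28 to 32 with each replicate left out in turn. Of all named genes 37.7% had a lower probe set in the main fit and with a pseudocount, and 30.8% with arrays centred. The share was 37.3% with quantile normalization, 37.8% with a trended and robust prior and 25.1% in the 1.2-fold test. On chip A alone it was 34.7%, and with a replicate left out 31.5% to 34.8%. Member probe sets called lower numbered 39, of which 27 were called lower with arrays centred and 18 in the 1.2-fold test. The 1 higher gene became 0 in the 1.2-fold test and with the median probe set per gene, and 0 to 1 with a replicate left out (0 without replicate 1). The core median was -0.513 with arrays centred, against -0.634 without, as centring adds to every log2 ratio. With a replicate left out the core median ranged over -0.691 to -0.598, the regulatory one over -0.568 to -0.415, the immune one over -0.617 to -0.384, core minus regulatory over -0.205 to -0.048, immune minus core over 0.069 to 0.236, Psmb8 minus Psmb5 over -0.623 to -0.209, and Psmb10 minus Psmb7 over -0.055 to 0.148. Among probe sets that were not called, centring turned the sign of Psmd2 (0.041), Psmd3 (0.03), Psmd5 (0.042), Psmd11 (0.018), Psme1 on chip B (0.045) and Psmd9 on chip B (0.061). Leaving out replicate 2 turned the sign of Psmd5 (0.034) and of Psmd11 on chip B (-0.126), which ranged over -0.143 to 0.034 and -0.126 to 0.186 with each replicate left out. With arrays centred 33.7% of chip A calls were higher, against 23.5% without centring, and 19.3% against 15.8% on chip B. No paired analysis was possible because the only groups that share replicate numbers are the 2 array types, which were not compared. The unnamed reference and 4 arrays per type limit what these ratios can show, and no measure of signal over background was used here.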
